A study of Mus musculus with 20 samples.

Results

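The 10 genes described here form the core of the brake on cell division that runs through the CDK inhibitors, p53 and the retinoblastoma protein: Cdkn1a, Cdkn1b, Cdkn2a, Cdkn2b, Cdkn2c, Cdkn2d, Trp53, Mdm2, Rb1 and Ccnd1. The rule names the genes and uses no measured value, though it was set with earlier results of these data known. They were found by matching the Ensembl identifiers of the count tables to mouse symbols. All 10 were among the 39179 genes counted, and all 10 passed the filter on low counts that left 12671 genes for testing. RNA sequencing was done on 20 libraries of immortalised kidney epithelial cells from C57BL/6J mice, in 4 groups of 5. The clone1 and clone19 groups are labelled as carrying a deletion of Fh1, which encodes the TCA cycle enzyme fumarate hydratase. Rec cells are labelled as re-expressing wild-type Fh1, and Fh1_fl_fl cells as wild type for Fh1. All groups were cultured in DMEM with 10% FBS and 0.05 mg/mL of added uridine, a nucleoside.

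Each clone is 1 cell line, so a difference between a clone and Fh1_fl_fl cannot be told apart from a difference between single cell lines. The same limit holds for Rec, likewise a single group, against each of the other groups. The labels do not say which clone Rec was made from, how the cells were immortalised, or which part of Fh1 was removed. Nor do they say whether the 5 libraries of a group are separate cultures; the p-values speak only to the spread among these libraries, part of which may be technical. In bulk RNA, fewer cells expressing a gene and less of its RNA per cell cannot be told apart. The groups had 5 libraries each, with gene totals between 5988447 and 18972176 counts. Fh1 itself was counted in every group, at 112 ± 5.93 CPM in clone1, 84.7 ± 7.31 in clone19, 71.3 ± 7.08 in Rec and 92.3 ± 6.16 in Fh1_fl_fl (mean ± SD, n = 5 each). CPM are counts scaled to a common depth with TMM-adjusted library sizes, and a whole-gene count of Fh1 does not check a deletion of part of it. All 8 kidney epithelial markers examined reached 1 CPM in every group. Their summed level was 2638 to 3281 CPM in clone1, 2095 to 2395 in clone19, 4309 to 4755 in Rec and 3440.2 to 3987 in Fh1_fl_fl. Single markers did not move together. Epcam averaged 86.6 CPM in clone1, 226 in clone19, 422 in Rec and 439 in Fh1_fl_fl. Pax2 averaged 45.4, 42, 95.9 and 272 CPM in that order, while Pax8 averaged 371, 232, 184 and 194 CPM. The 7 leukocyte markers summed to 8.58 to 10.9 CPM in clone1, 18.2 to 21.9 in clone19, 2.29 to 4.23 in Rec and 3.94 to 5.29 in Fh1_fl_fl, and only Cd68 reached 1 CPM, with Cd3e at 0 counts in clone19 and Fh1_fl_fl and Adgre1 and Lyz2 at 0 in Rec. Cd68 averaged 7.6 CPM in clone1, 18.1 in clone19, 2.62 in Rec and 3.97 in Fh1_fl_fl. The 6 endothelial markers summed to at most 9.79 CPM in any library and the 6 fibroblast and pericyte markers to at most 15.4, both highest in clone19; Cldn5 was at 0 counts in all 4 groups and so was Pdgfrb. The 5 podocyte markers summed to 188 to 282 CPM in clone1, 191 to 232 in clone19, 156 to 194 in Rec and 131 to 156 in Fh1_fl_fl. Most of this was Podxl, with means of 212, 199.5, 165 and 125 CPM in that order. Of the 5, 2 reached 1 CPM in each group, Podxl and Synpo, and Wt1 was at 0 counts in clone1, Rec and Fh1_fl_fl. The part of these markers in the results was not tested. One library, clone19 replicate 3, stood apart: Gm42418, a gene model that overlaps ribosomal RNA sequence, took 8.202% of its counts against a median of 0.3136% over all libraries.

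A cell commits to division when D-type cyclins, among them cyclin D1 from Ccnd1, activate CDK4 and CDK6, which phosphorylate the retinoblastoma protein from Rb1 and release E2F transcription factors. The INK4 proteins, from Cdkn2a (p16Ink4a), Cdkn2b (p15), Cdkn2c (p18) and Cdkn2d (p19Ink4d), bind CDK4 and CDK6 and block them. The CIP/KIP proteins p21, from Cdkn1a, and p27, from Cdkn1b, inhibit CDK2 complexes. Trp53 encodes the transcription factor p53, which induces Cdkn1a and Mdm2, and MDM2 in turn marks p53 for degradation. A second product of the Cdkn2a locus, p19Arf, is read in another frame from a separate first exon and holds MDM2 in check. In cultured rodent cells, loss or disabling of this network is a common route past the arrest that otherwise ends growth in culture.

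The start-site regions of 3 of these genes are shown: Cdkn1a, as a p53-induced gene, Cdkn2a, whose separate starts give different proteins, and Cdkn2d, which was higher in both clones by nearly the same amount. Cdkn1a and Cdkn2a have 2 RefSeq windows each, as does Cdkn2c, whose windows held 4 GC boxes and 1 E-box and are not printed. The windows run from 250 bases before to 50 bases after the start, from RefSeq on GRCm38.p6, written 5′ to 3′ on the gene's strand. Capitals mark matches on either strand to a p53 element (2 adjacent copies of the 10-base p53 half-site consensus with at most 1 mismatch in all), an E2F word (TTTCCCGC, TTTCGCGC, TTTGCCGC or TTTGGCGC), a GC box (GGGCGG) or an E-box (CACGTG). The first Cdkn1a window lies at chr17:29090729-29091028 and the second at chr17:29093519-29093818, both on the plus strand. The first Cdkn2a window, at chr4:89294570-89294869, precedes the first exon of the p19Arf transcript, and the second, at chr4:89282143-89282442, that of the p16Ink4a transcript, both on the minus strand. The Cdkn2d window lies at chr9:21291160-21291459 on the minus strand.
Cdkn1a upstream start: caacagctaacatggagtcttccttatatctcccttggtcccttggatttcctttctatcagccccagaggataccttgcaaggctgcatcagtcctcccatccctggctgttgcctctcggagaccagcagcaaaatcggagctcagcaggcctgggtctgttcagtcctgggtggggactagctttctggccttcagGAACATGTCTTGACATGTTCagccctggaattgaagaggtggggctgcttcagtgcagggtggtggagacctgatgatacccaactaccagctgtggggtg
Cdkn1a downstream start: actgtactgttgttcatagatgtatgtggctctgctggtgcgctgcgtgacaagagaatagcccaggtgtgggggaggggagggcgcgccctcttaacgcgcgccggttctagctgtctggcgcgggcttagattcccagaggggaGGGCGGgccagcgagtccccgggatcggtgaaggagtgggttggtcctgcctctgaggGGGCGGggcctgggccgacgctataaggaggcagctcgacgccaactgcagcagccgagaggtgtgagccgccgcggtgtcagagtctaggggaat
Cdkn2a p19Arf start: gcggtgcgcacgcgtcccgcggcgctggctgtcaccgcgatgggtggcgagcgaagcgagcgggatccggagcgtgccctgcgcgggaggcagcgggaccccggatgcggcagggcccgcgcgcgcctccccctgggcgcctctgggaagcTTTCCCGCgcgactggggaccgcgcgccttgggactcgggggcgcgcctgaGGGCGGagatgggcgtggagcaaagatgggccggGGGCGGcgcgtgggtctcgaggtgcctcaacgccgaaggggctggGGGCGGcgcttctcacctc
Cdkn2a p16Ink4a start: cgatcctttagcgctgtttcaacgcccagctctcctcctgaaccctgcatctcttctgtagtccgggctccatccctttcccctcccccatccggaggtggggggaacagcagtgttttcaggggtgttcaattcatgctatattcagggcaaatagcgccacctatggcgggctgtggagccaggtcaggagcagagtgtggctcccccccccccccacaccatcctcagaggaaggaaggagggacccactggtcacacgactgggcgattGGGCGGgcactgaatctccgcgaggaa
Cdkn2d start: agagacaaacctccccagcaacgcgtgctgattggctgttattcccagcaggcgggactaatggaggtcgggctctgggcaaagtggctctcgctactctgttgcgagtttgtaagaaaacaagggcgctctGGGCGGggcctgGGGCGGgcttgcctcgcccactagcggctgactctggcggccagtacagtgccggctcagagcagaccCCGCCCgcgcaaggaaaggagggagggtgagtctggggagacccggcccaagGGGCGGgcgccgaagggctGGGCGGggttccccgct
The capitals in the upstream Cdkn1a window are 1 p53 element, which begins 51 bases before that start. Among 32851 RefSeq windows of this length, 29 (0.0883%) held such an element, and no other window of the 8 members with an entry (11 windows) did. The p19Arf window held 1 E2F word, found in 2.26% of all windows, and 3 GC boxes, while the p16Ink4a window held 1 GC box and no E2F word. The downstream Cdkn1a window held 2 GC boxes and the Cdkn2d window 5. GC boxes occurred in 35.7% of all windows and E-boxes in 7.15%. A match of letters is a description of these windows and does not show that a factor bound there.

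Of the 10 genes, 4 rose and 4 fell in clone1 against Fh1_fl_fl, with Cdkn2a and Cdkn2b not passing the test. The background was high, since 78.6% of the 12671 tested genes were called in this comparison, and a share of 8 in 10 is close to it. In clone19, 4 of the 10 rose and 4 fell against Fh1_fl_fl, with Cdkn1b and Mdm2 not called, against a background of 72.9%. In Rec, 3 rose, 4 fell and 3 were not called against Fh1_fl_fl, with 70.8% of all tested genes called. The libraries of the 2 groups did not overlap for 8 of the 10 genes in clone1 against Fh1_fl_fl, for 7 in clone19 and for 6 in Rec, where the same held for 65.5%, 59% and 58.3% of all tested genes. All 3 comparisons use the same 5 Fh1_fl_fl libraries, so their values are given side by side and not as independent evidence of each other. The median absolute log2 fold change of the 10 genes was 0.8 in clone1, 0.71 in clone19 and 0.28 in Rec, beside 0.58, 0.48 and 0.44 over all tested genes. Rec was also compared with each clone, where 9 of the 10 genes were called against clone1 (4 higher, 5 lower; background 77.9%) and 7 against clone19 (4 higher, 3 lower; background 73.8%). Between the clones, 6 genes were higher and 3 lower in clone1 than in clone19, against a background of 65.1% called in either direction, 31.6% higher and 33.5% lower. Libraries did not overlap for 9 of the 10 genes between Rec and clone1, 6 between Rec and clone19 and 8 between clone1 and clone19, where the same held for 62.9%, 57.5% and 45.3% of all tested genes.

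**Figure D1:**
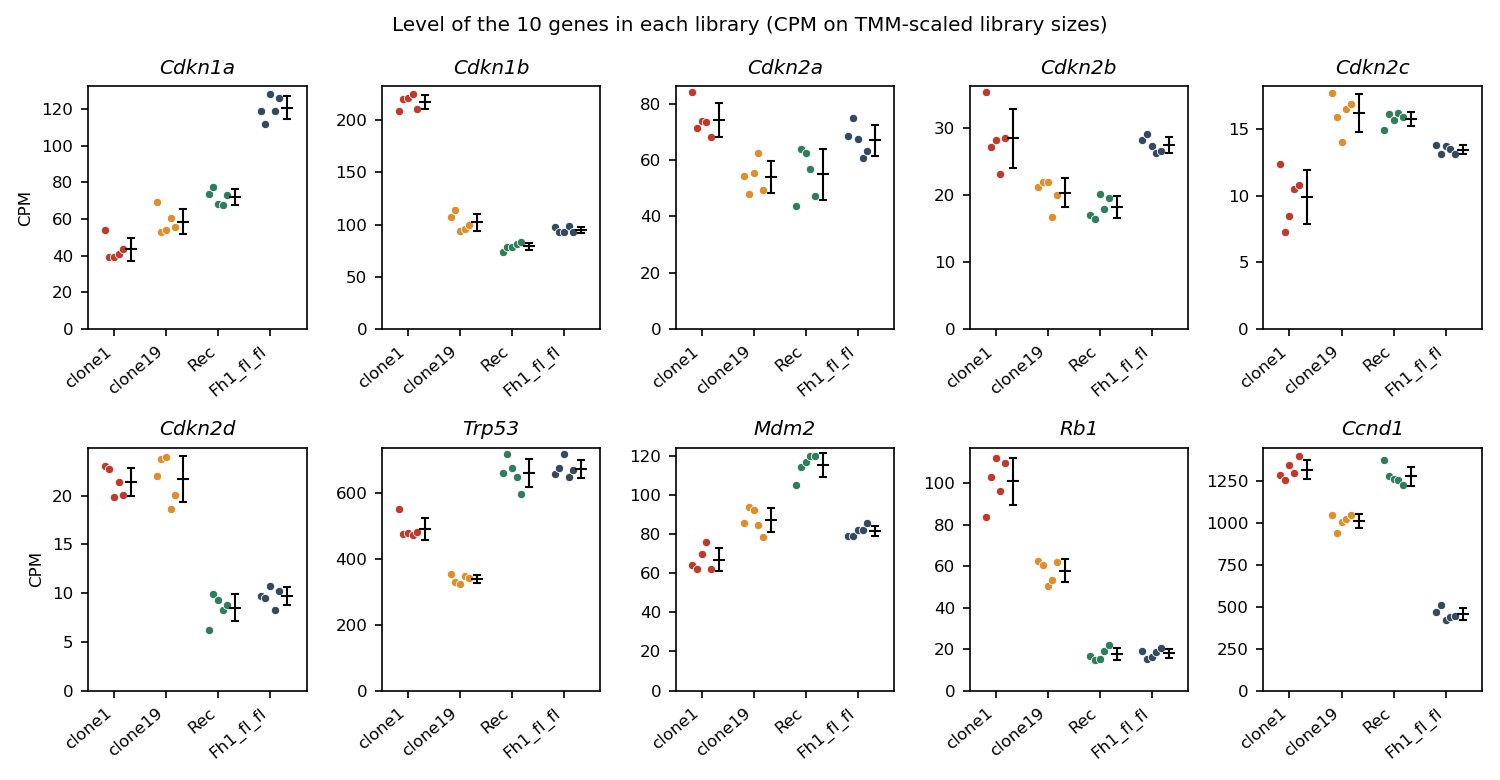
Level of each of the 10 genes in CPM (y axis, from 0) in the 5 libraries of clone1, clone19, Rec and Fh1_fl_fl (x axis); points are libraries and bars the mean ± SD. Rb1 and Cdkn2d stand high in both clones and low in Rec and Fh1_fl_fl, Cdkn1a is highest in Fh1_fl_fl, and Ccnd1 is lowest there.

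Among the CIP/KIP genes, Cdkn1a fell in both clones and in Rec, while Cdkn1b rose in clone1, fell in Rec and was not called in clone19. Cdkn1a (ENSMUSG00000023067; GRCm38 chromosome 17, 29090976 to 29100727, plus strand), the p53-induced CDK inhibitor p21, had 54.1, 39.4, 39.1, 41 and 43.6 CPM in the clone1 libraries and 69.4, 52.7, 54.2, 60.8 and 55.5 CPM in the clone19 libraries. It had 73.6, 77.7, 68.2, 67.6 and 73.3 CPM in the Rec libraries and 119, 112, 128, 119 and 126 CPM in the Fh1_fl_fl libraries. Every library of clone1, clone19 and Rec lay below every Fh1_fl_fl library, and Rec overlapped clone19 but not clone1. By edgeR's quasi-likelihood test, its log2 fold change relative to Fh1_fl_fl reached -1.47 ± 0.08 (SE) in clone1, -1.05 ± 0.08 in clone19 and -0.74 ± 0.08 in Rec, with Benjamini-Hochberg adjusted p of 4.01e-15, 6.95e-12 and 3.39e-09. Rec was higher than clone1 by 0.73 (adjusted p = 8.41e-09) and than clone19 by 0.30 (adjusted p = 0.00171), so its mean lay between the clones and Fh1_fl_fl. Clone1 was below clone19 by a log2 change of -0.42 (adjusted p = 9.02e-05), with 1 clone1 library inside the clone19 range. The Cdkn1a exons share 273 bases with the opposite-strand gene AC167363.2, and 8.49% of their 50-base words occur in other genes.

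Cdkn1b (ENSMUSG00000003031; chromosome 6, 134920401 to 134925513, plus strand), the CDK inhibitor p27 that accumulates in resting cells, had 209, 220.2, 221, 225 and 210.4 CPM in the clone1 libraries and 107, 114, 93.9, 96.2 and 99.9 CPM in the clone19 libraries. Its level was 74.1, 78.3, 78.1, 81.4 and 83.7 CPM in the Rec libraries and 97.4, 93, 93.1, 98.4 and 93.2 CPM in the Fh1_fl_fl libraries. All clone1 libraries were above those of the other groups, all Rec libraries were below them, and clone19 overlapped Fh1_fl_fl. Cdkn1b exceeded its Fh1_fl_fl level by a log2 fold change of 1.19 ± 0.06 (SE) in clone1, which is 2.28-fold, and was lower in Rec, with a log2 fold change of -0.26 ± 0.06 (adjusted p 8.32e-17 and 0.000151). In clone19 the difference was 0.10 (95% interval -0.01 to 0.22, adjusted p = 0.0967). Without clone19 replicate 3 it passed the threshold, at 0.14 (adjusted p = 0.0345), and scaled to library totals it turned to -0.02 (adjusted p = 0.79). Clone1 exceeded clone19 by 1.09 on the log2 scale (SE 0.06, adjusted p = 2.52e-15), and Rec lay below clone19 by -0.37 (adjusted p = 1.86e-06). Cdkn1c, which encodes the CIP/KIP protein p57, is not one of the 10 but completes the family. Its counts summed to 1 over the clone1 libraries, 82 over clone19, 4 over Rec and 716 over Fh1_fl_fl, corresponding to means of 0.0194, 2.1, 0.0791 and 10.2 CPM.

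Per base of exon, the CIP/KIP total was alike in clone1 and Fh1_fl_fl but its make-up was not. RPKM, which is CPM divided by the merged exon length in kilobases, summed over Cdkn1a, Cdkn1b and Cdkn1c to 59.9 ± 1.08 in clone1, 39.9 ± 2.82 in clone19, 37.7 ± 1.28 in Rec and 59.9 ± 1.88 in Fh1_fl_fl (mean ± SD, n = 5 each). Cdkn1b made up 79.6 ± 2.72% of the sum in clone1, 56.2 ± 3.03% in clone19, 46.1 ± 2.03% in Rec and 34.9 ± 1.45% in Fh1_fl_fl. The share of Cdkn1a was 20.4 ± 2.73% in clone1, 41.2 ± 3.31% in clone19, 53.8 ± 2.02% in Rec and 56.7 ± 1.31% in Fh1_fl_fl. The highest Cdkn1b share in Fh1_fl_fl, 36.1%, lay below the lowest in Rec, 43.9%, and the lowest in clone1, 75.1%, above the highest in clone19, 60.7%. These shares were not tested.

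**Figure D2:**
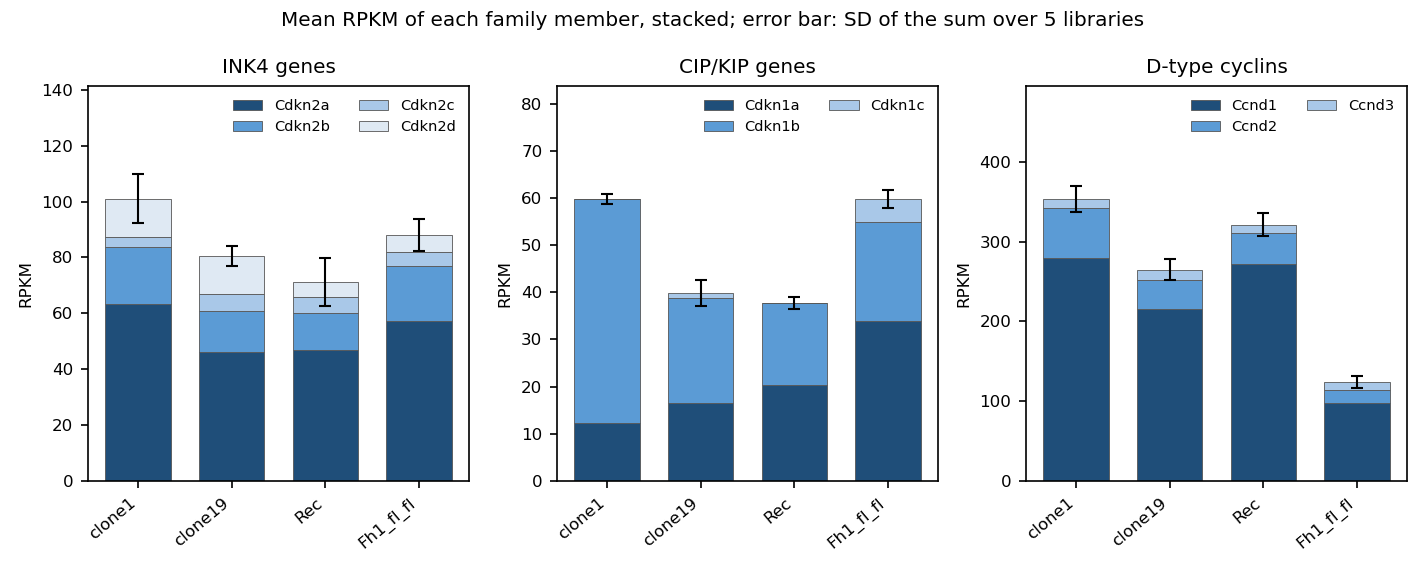
Stacked mean RPKM (y axis, from 0) of the INK4 genes, the CIP/KIP genes and the D-type cyclins in clone1, clone19, Rec and Fh1_fl_fl (x axis); error bars are the SD of the sum over 5 libraries. The CIP/KIP sum was 59.9 RPKM in both clone1 and Fh1_fl_fl, mostly Cdkn1b in clone1 and mostly Cdkn1a in Fh1_fl_fl.

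The 4 INK4 genes did not move together. Cdkn2d rose in both clones and was not called in Rec, Cdkn2c fell in clone1, and Cdkn2a and Cdkn2b fell in clone19 and in Rec without being called in clone1. Cdkn2d (ENSMUSG00000096472; chromosome 9, 21288410 to 21291407, minus strand), the INK4 inhibitor p19Ink4d, had 23, 22.7, 19.9, 21.4 and 20.02 CPM in the clone1 libraries and 22, 23.8, 24, 18.6 and 20.04 CPM in the clone19 libraries. It had 6.26, 9.92, 9.32, 8.23 and 8.79 CPM in the Rec libraries and 9.74, 9.55, 10.7, 8.23 and 10.2 CPM in the Fh1_fl_fl libraries. Every clone library was above every Rec and Fh1_fl_fl library, Rec overlapped Fh1_fl_fl, and the clones overlapped each other. Cdkn2d was higher than in Fh1_fl_fl by 1.14 ± 0.10 in clone1 and 1.15 ± 0.11 in clone19 (log2 fold change ± SE, adjusted p 1.23e-10 and 2.14e-10), and clone1 differed from clone19 by -0.01 (95% interval -0.22 to 0.20). Rec was lower than clone1 by -1.33 (adjusted p = 1.19e-11) and than clone19 by -1.34 (adjusted p = 2.11e-11) on the log2 scale. Against Fh1_fl_fl, Rec differed by -0.18 (95% interval -0.41 to 0.05, adjusted p = 0.147), a value that passed the threshold only with library totals, at -0.32 (adjusted p = 0.0122).

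Cdkn2a (ENSMUSG00000044303; chromosome 4, 89274471 to 89294653, minus strand) has 2 annotated transcripts, one for p16Ink4a and one for p19Arf, which share their later exons and are merged in 1 count. Its level was 84.2, 71.3, 73.7, 73.4 and 68 CPM in the clone1 libraries and 54.4, 48.1, 55.2, 62.5 and 49.5 CPM in the clone19 libraries. In the Rec libraries it was 43.8, 64, 62.4, 56.8 and 47.2 CPM, and in the Fh1_fl_fl libraries 68.4, 75, 67.6, 60.7 and 63 CPM. Every library expressed the locus, and clone1, clone19 and Rec each overlapped Fh1_fl_fl in at least 1 library. It was lower than in Fh1_fl_fl in clone19 and Rec, with log2 fold changes of -0.31 ± 0.09 and -0.29 ± 0.09 (SE; adjusted p 0.00482 and 0.00726). In clone1 the log2 difference from Fh1_fl_fl was 0.15 (95% interval -0.04 to 0.34, adjusted p = 0.142). The clone1 value passed in the fit to the 2 groups alone, at 0.16 (adjusted p = 0.046). Rec was below clone1, with a log2 fold change of -0.44 (adjusted p = 0.000141), and clone1 exceeded clone19 by 0.46 (adjusted p = 0.000152), both without overlap of libraries.

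Cdkn2b (ENSMUSG00000073802; chromosome 4, 89306299 to 89311039, minus strand), the neighbouring gene for the TGF-beta-responsive inhibitor p15, had a similar pattern. It averaged 28.5 ± 4.41 CPM in clone1 (23.2 to 35.4), 20.4 ± 2.17 in clone19 (16.8 to 22), 18.2 ± 1.58 in Rec (16.5 to 20.2) and 27.5 ± 1.2 in Fh1_fl_fl (26.3 to 29.2; mean ± SD and range, n = 5 each). Cdkn2b was lower than in Fh1_fl_fl in clone19 and Rec, with log2 fold changes of -0.44 ± 0.10 and -0.59 ± 0.09 (SE; adjusted p 0.000189 and 3e-06), both without overlap of libraries. In clone1 it was 0.06 (95% interval -0.13 to 0.24, adjusted p = 0.558) and turned to -0.08 with library totals. Of all pairs among the 10 genes, Cdkn2a and Cdkn2b were the closest in pattern, with a root-mean-square difference of mean-centred log2 CPM of 0.22 over the 20 libraries. Cdkn2c and Mdm2 were nearly as close, at 0.24. Outside the 10, Nudt16l1 lay closer to Cdkn2a (0.14) and Akr1b8 closer to Cdkn2b (0.15). Mtap, the methylthioadenosine phosphorylase gene, lies next to Cdkn2a and Cdkn2b and is often lost with CDKN2A in human tumours. It averaged 237 ± 10.9 CPM in clone1, 161 ± 8.55 in clone19, 226 ± 11.4 in Rec and 145 ± 6.51 in Fh1_fl_fl. It rose by 0.71 in clone1 and 0.63 in Rec on the log2 scale (adjusted p 3.1e-12 and 5.04e-11), and by 0.15 in clone19 (adjusted p = 0.0163, up to 0.74 over the alternatives). Counts of Dmrta1, on the other side, summed to 1 in clone1, 0 in clone19, 1 in Rec and 1 in Fh1_fl_fl, too few for testing. Of the other neighbours tested, Hacd4 averaged 9.91 ± 0.772 CPM in clone1, 1.68 ± 0.306 in clone19, 8.82 ± 0.711 in Rec and 28.4 ± 1.67 in Fh1_fl_fl, and it fell in all 3. Focad fell by 0.51, 0.56 and 0.21 on the log2 scale in clone1, clone19 and Rec, and Klhl9 fell by 0.6, 0.29 and 0.27.

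Cdkn2c (ENSMUSG00000028551; chromosome 4, 109660876 to 109667189, minus strand), the inhibitor p18, was the lowest of the 4 INK4 genes per length in clone1, clone19 and Fh1_fl_fl. It had 12.4, 7.26, 8.46, 10.5 and 10.8 CPM in clone1, 17.7, 15.9, 14, 16.5 and 16.9 in clone19, 14.9, 16.1, 15.7, 16.2 and 15.9 in Rec, and 13.8, 13.1, 13.7, 13.5 and 13.1 in Fh1_fl_fl. The clone1 libraries were all below, and the clone19 and Rec libraries all above, those of Fh1_fl_fl. Cdkn2c fell in clone1 by 0.44 on the log2 scale (SE 0.11, adjusted p = 0.000523). Its log2 rise was 0.27 ± 0.10 in clone19 and 0.23 ± 0.10 in Rec (± SE, adjusted p 0.0185 and 0.0394). Both of these calls were lost with library totals, at 0.15 (adjusted p = 0.2) in clone19 and 0.10 (adjusted p = 0.401) in Rec, and without the count filter. The Rec call was also lost on leaving out Fh1_fl_fl replicate 2 or 5 or Rec replicate 3, 4 or 5, with adjusted p between 0.0504 and 0.065. Summed over the family, INK4 RPKM was 101 ± 8.77 in clone1, 80.5 ± 3.54 in clone19, 71.2 ± 8.69 in Rec and 88.1 ± 5.76 in Fh1_fl_fl. Cdkn2a was the largest component in every group, at 62.6 ± 1.51%, 57.1 ± 4.16%, 65.5 ± 3.27% and 64.8 ± 1.16% of the sum in clone1, clone19, Rec and Fh1_fl_fl. The Cdkn2d share was 13.5 ± 0.932% in clone1, 17.1 ± 1.97% in clone19, 7.57 ± 0.69% in Rec and 7 ± 0.64% in Fh1_fl_fl.

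Trp53 fell in both clones and was not called in Rec, whereas Mdm2 fell in clone1 and rose in Rec. Trp53 (ENSMUSG00000059552; chromosome 11, 69580359 to 69591873, plus strand), which encodes p53, had 551, 474, 477, 472 and 480.0 CPM in the clone1 libraries and 353, 329, 324, 349 and 342 CPM in the clone19 libraries. Rec libraries had 659, 718, 677, 649 and 598 CPM, and Fh1_fl_fl libraries had 656, 676, 717, 648 and 669 CPM. Clone19 was lowest, clone1 intermediate, and Rec and Fh1_fl_fl overlapped above both clones. Trp53 was lower than in Fh1_fl_fl in clone1 and clone19, with log2 fold changes of -0.46 ± 0.06 and -0.99 ± 0.06 (SE; adjusted p 3.36e-08 and 1.33e-14). In Rec the log2 difference from Fh1_fl_fl was -0.03 (95% interval -0.14 to 0.09, adjusted p = 0.664). Scaled to library totals, the Rec value was -0.16 and passed the threshold (adjusted p = 0.0253). Rec exceeded clone1 by 0.43 (adjusted p = 1.04e-07) and clone19 by 0.96 (adjusted p = 2.55e-14). Of the 50-base words in Trp53 exons, 3.95% occur in other genes, among them the pseudogene Trp53-ps, which had at most 1 count in any group. RNA levels of Trp53 say nothing of p53 protein, which is controlled mainly by its degradation.

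Mdm2 (ENSMUSG00000020184; chromosome 10, 117688875 to 117710758, minus strand), the ubiquitin ligase for p53 and itself a p53 target, had 64.4, 62.3, 70.03, 75.8 and 62.2 CPM in the clone1 libraries and 85.8, 94, 92.3, 84.8 and 78.6 CPM in the clone19 libraries. It had 105, 114, 117, 119.8 and 119.6 CPM in the Rec libraries and 79.1, 79.1, 82, 82 and 85.7 CPM in the Fh1_fl_fl libraries. Clone1 lay below all other groups and Rec above them, and clone19 overlapped Fh1_fl_fl. Against Fh1_fl_fl, Mdm2 changed by -0.29 ± 0.06 in clone1 and by 0.50 ± 0.06 in Rec (log2 fold change ± SE, adjusted p 0.000192 and 7.04e-08). For clone19 it was 0.09 (95% interval -0.04 to 0.22, adjusted p = 0.186). The clone19 value turned to -0.03 with library totals. Cdkn1a and Mdm2, both induced by p53, had opposite directions in Rec, where Cdkn1a fell and Mdm2 rose against Fh1_fl_fl. Mdm4, the p53 inhibitor related to Mdm2, averaged 21.6 ± 5.28 CPM in clone1, 23.2 ± 2.72 in clone19, 19.1 ± 4.48 in Rec and 21.5 ± 2.6 in Fh1_fl_fl, and it was called in none of the 6 comparisons.

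Other genes known as p53 targets moved in both directions. Of 34 tested targets outside the 10, 16 were higher and 13 lower in clone1 than in Fh1_fl_fl, 19 higher and 10 lower in clone19, and 16 higher and 11 lower in Rec. Over all tested genes, 38% were called higher and 40.5% lower in clone1, 36.8% and 36.1% in clone19, and 33.4% and 37.4% in Rec. The list's median log2 fold changes in clone1, clone19 and Rec were 0.11, 0.26 and 0.09, beside -0.03, 0.0 and -0.03 over all genes. Gadd45a, a growth arrest gene induced by DNA damage and other stress, averaged 410.5 ± 28.4 CPM in clone1, 203 ± 13.9 in clone19, 71.5 ± 5.77 in Rec and 26.5 ± 2.23 in Fh1_fl_fl. Its log2 fold change against Fh1_fl_fl was 3.96, 2.94 and 1.44 in clone1, clone19 and Rec (adjusted p = 7.3e-25, 4.07e-22 and 1.24e-15). The death receptor gene Fas had 2.68 ± 0.688 CPM in clone1, 2.25 ± 0.729 in clone19, 0.0654 ± 0.146 in Rec and 0.16 ± 0.149 in Fh1_fl_fl, and it rose in both clones. Ptp4a3, a phosphatase gene, had 0.183 ± 0.178, 0.129 ± 0.146, 0.0302 ± 0.0433 and 6.89 ± 1.39 CPM in clone1, clone19, Rec and Fh1_fl_fl, and it fell in the first 3.

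Of 19 tested regulators of p53, 5 were higher and 8 lower in clone1, 8 higher and 9 lower in clone19, and 6 higher and 7 lower in Rec, each against Fh1_fl_fl. These counts are to be read against 38% higher and 40.5% lower of all tested genes in clone1, 36.8% and 36.1% in clone19, and 33.4% and 37.4% in Rec. With library totals the higher ones numbered 2 in clone1 and 3 in clone19. Ppm1d, the phosphatase that switches p53 signalling off, averaged 9.19 ± 1.61 CPM in clone1, 12.7 ± 0.76 in clone19, 24.2 ± 2.48 in Rec and 29.4 ± 2.3 in Fh1_fl_fl, and fell in all 3. Sirt1, a deacetylase acting on p53 among other proteins, averaged 8.33 ± 1.48 CPM in clone1, 14 ± 2.38 in clone19, 32.6 ± 3.53 in Rec and 27.2 ± 1.1 in Fh1_fl_fl. It fell in both clones and was higher in Rec (log2 fold change 0.26, adjusted p = 0.0167, with adjusted p up to 0.249 over the alternatives). Trp63, a p53 relative of basal epithelia, was near the limit of counting, at 0.581, 0.438, 0.511 and 1.64 CPM in clone1, clone19, Rec and Fh1_fl_fl.

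Rb1 rose in both clones, with the largest fold change of the 10 genes there, and was not called in Rec. Rb1 (ENSMUSG00000022105; chromosome 14, 73183673 to 73325822, minus strand), which encodes the retinoblastoma protein, had 83.9, 103, 112, 96.2 and 109.9 CPM in the clone1 libraries and 62.5, 60.6, 50.7, 53.3 and 62.2 CPM in the clone19 libraries. Rec libraries had 16.5, 15, 15.5, 19.2 and 21.8 CPM, and Fh1_fl_fl libraries had 19.1, 15.4, 16.3, 18.5 and 20.5 CPM. The clone libraries were all above 50 CPM, clone1 above clone19, while no Rec or Fh1_fl_fl library exceeded 21.8 CPM and Rec overlapped Fh1_fl_fl. Rb1 was 5.59-fold higher than in Fh1_fl_fl in clone1 and 3.21-fold higher in clone19, log2 fold changes of 2.48 ± 0.10 and 1.68 ± 0.10 (SE; adjusted p 3.99e-18 and 4.71e-14). In Rec it was -0.03 (95% interval -0.25 to 0.19, adjusted p = 0.832), and Rec lay below clone1 by -2.51 (adjusted p = 4.56e-18) and below clone19 by -1.71 (adjusted p = 4.89e-14). Per length, Rb1 was the lowest of the 10 genes in Rec, at 2.93 ± 0.468 RPKM, and in Fh1_fl_fl, at 2.98 ± 0.349 RPKM, but had 16.8 ± 1.88 RPKM in clone1 and 9.62 ± 0.91 in clone19.

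The Rb1 exons share 896 bases with the opposite-strand genes Rcbtb2 and Lpar6, the receptor gene that lies inside an Rb1 intron, and the strand setting of the counting is not given in the sources used here. Both neighbours went the other way. Lpar6 averaged 5.3 ± 0.64 CPM in clone1, 4.32 ± 1.66 in clone19, 17.3 ± 1.92 in Rec and 16.7 ± 1.13 in Fh1_fl_fl, and it fell in clone1 by 1.65 and in clone19 by 1.93 on the log2 scale. Rcbtb2 averaged 11.8 ± 0.751 CPM in clone1, 12.4 ± 2.01 in clone19, 34.8 ± 1.66 in Rec and 30.2 ± 0.636 in Fh1_fl_fl, and fell by 1.35 and 1.3 in clone1 and clone19. Of the other pocket proteins, Rbl1 (p107) fell in clone1 by 0.51 (adjusted p = 2.73e-07) and rose in Rec by 0.36 (adjusted p = 2.81e-05). Its mean was 38.7 ± 2.36 CPM in clone1, 57.5 ± 1.88 in clone19, 70.7 ± 7.16 in Rec and 54.9 ± 3.41 in Fh1_fl_fl. The lowest Rec library, at 58.7 CPM, lay just below the highest Fh1_fl_fl library, at 58.9 CPM. Rbl2 (p130), the pocket protein of resting cells, averaged 70.8 ± 2.1, 62.2 ± 4.75, 52.6 ± 4.36 and 75.6 ± 2.27 CPM in clone1, clone19, Rec and Fh1_fl_fl, and fell in clone19 by 0.28 (adjusted p = 0.000254) and in Rec by 0.52 (adjusted p = 2.85e-08). Neither had a change as large as that of Rb1 in the clones.

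Ccnd1 (ENSMUSG00000070348; chromosome 7, 144929931 to 144939925, minus strand), which encodes cyclin D1, the growth-factor-induced partner of CDK4 and CDK6, was higher than in Fh1_fl_fl in all 3 other groups, Rec included. It had 1290.4, 1261, 1346, 1298 and 1404 CPM in the clone1 libraries and 1049, 943, 1006, 1024 and 1049.9 CPM in the clone19 libraries. Rec libraries had 1376, 1282, 1265, 1256 and 1228 CPM, and Fh1_fl_fl libraries had 469, 512, 422, 439 and 445 CPM. No Fh1_fl_fl library came near the others, and Rec overlapped clone1 but not clone19. In clone1, clone19 and Rec, Ccnd1 stood 2.89-fold, 2.22-fold and 2.8-fold above Fh1_fl_fl, log2 fold changes of 1.53, 1.15 and 1.49 (SE 0.06 each, adjusted p 8.08e-19, 6.57e-16 and 4.94e-18). Rec differed from clone1 by -0.04 (95% interval -0.16 to 0.07, adjusted p = 0.489) and exceeded clone19 by 0.34 (adjusted p = 6.03e-06). The Ccnd1 exons share 1100 bases with the opposite-strand gene LTO1, which averaged 7.49 ± 0.971 CPM in clone1, 7.95 ± 0.96 in clone19, 14.2 ± 0.977 in Rec and 14.8 ± 0.651 in Fh1_fl_fl.

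**Figure D3:**
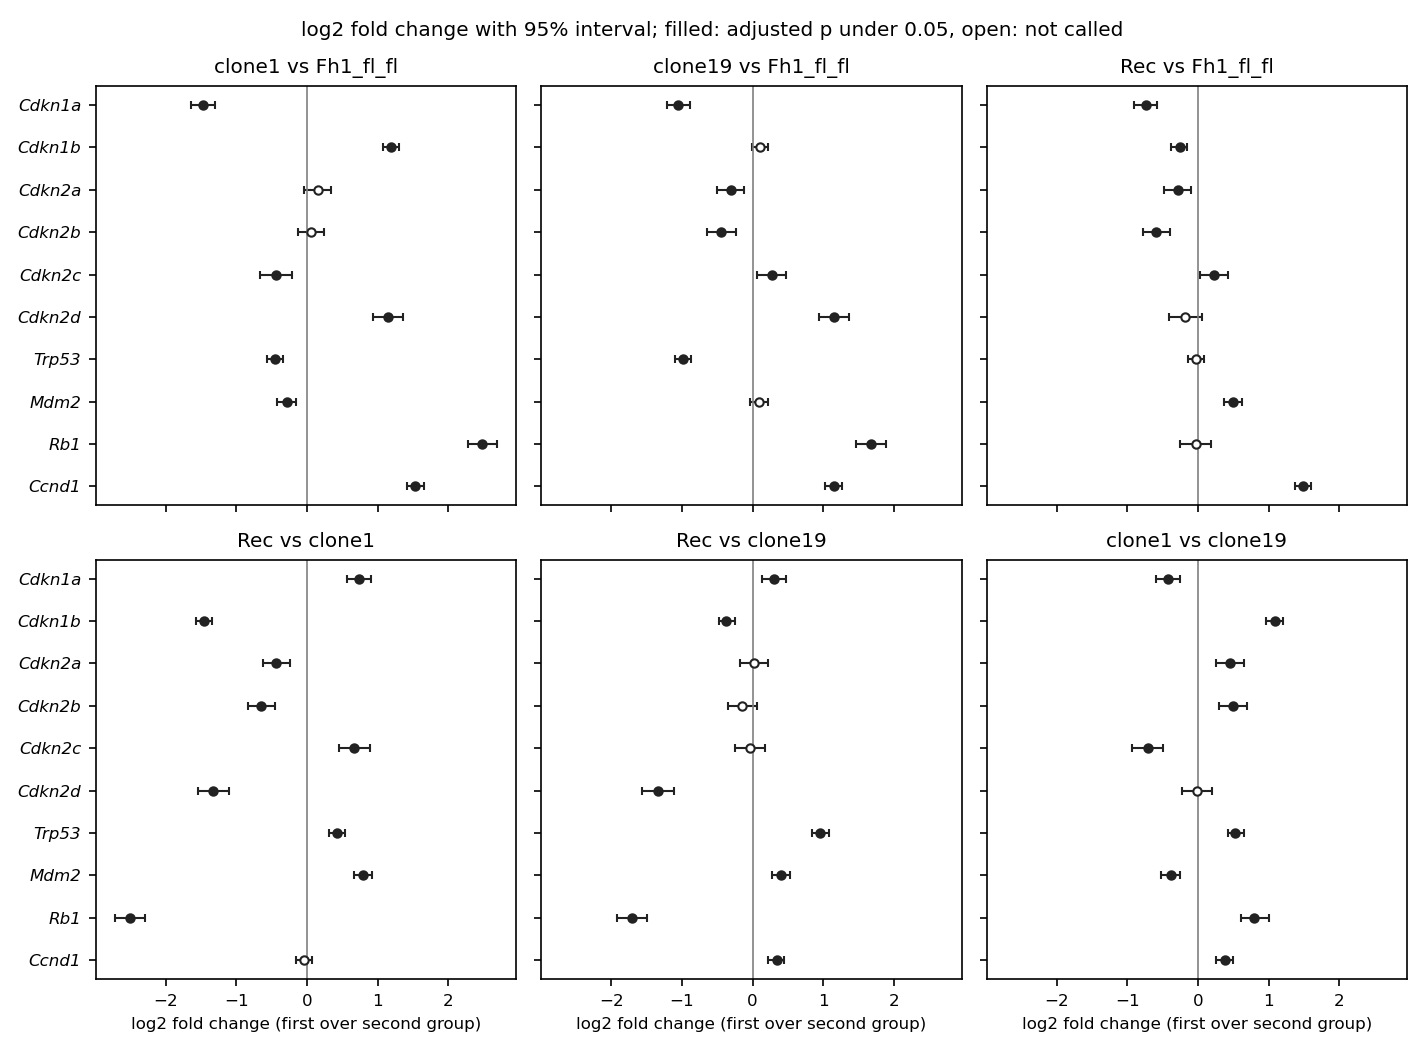
Log2 fold change (x axis) of each of the 10 genes (rows) in the 6 comparisons, first-named over second-named group, with 95% intervals; filled points passed an adjusted p of 0.05. Rb1 reached 2.48 in clone1 and 1.68 in clone19 against Fh1_fl_fl and lay at -0.03 in Rec, where intervals for Cdkn2d, Trp53 and Rb1 include 0; the Rec values of Trp53 and Rb1 turned positive when some single libraries were left out.

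The other D-type cyclins and their kinases were examined because INK4 proteins act on their complexes. Ccnd2, for cyclin D2, had 461, 592, 618, 623 and 642 CPM in clone1, 368, 301, 359, 323 and 375 in clone19, 416, 321, 373, 359.9 and 371 in Rec, and 161, 169.8, 164, 146 and 161 in Fh1_fl_fl. It rose in all 3 against Fh1_fl_fl without overlap, by 1.87 in clone1, 1.11 in clone19 and 1.2 in Rec on the log2 scale (adjusted p = 2.61e-17, 2.65e-12 and 5.73e-13). Ccnd3, for cyclin D3, rose by 0.28 in clone19 (adjusted p = 0.000316) and by 0.14 in clone1 (adjusted p = 0.0442), where the call was lost with library totals (0.0, adjusted p = 0.984). Summed over the 3 genes, D-type cyclin RPKM was 354 ± 16.5 in clone1, 265 ± 13 in clone19, 322 ± 14.2 in Rec and 124 ± 7.92 in Fh1_fl_fl, of which Ccnd1 made up 79.2 ± 1.37%, 81.4 ± 0.737%, 84.6 ± 0.672% and 78 ± 1.12%.

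The 2 kinases of cyclin D went in opposite directions in the clones. Cdk4 had 159.7, 130.3, 139, 134 and 129.8 CPM in clone1, 177, 205, 203, 208 and 192 in clone19, 443, 511, 499.7, 440.0 and 458 in Rec, and 412, 420.2, 459.5, 426 and 422 in Fh1_fl_fl. All clone libraries lay below all Rec and Fh1_fl_fl libraries, with log2 fold changes against Fh1_fl_fl of -1.63 in clone1 and -1.12 in clone19 (adjusted p = 2.7e-18 and 1.2e-14), and 0.14 in Rec (adjusted p = 0.052). Cdk6 averaged 81.7 ± 6.86 CPM in clone1, 66.2 ± 6.96 in clone19, 66.4 ± 12.6 in Rec and 39.6 ± 5.74 in Fh1_fl_fl, and rose in all 3 by 1.05, 0.74 and 0.75 on the log2 scale. The lowest Rec library, at 46.7 CPM, lay just below the highest Fh1_fl_fl library, at 47 CPM. Per length, Cdk4 exceeded Cdk6 in every group, with 42.6 ± 3.81 against 5.84 ± 0.49 RPKM in clone1 and 132 ± 5.67 against 2.83 ± 0.41 RPKM in Fh1_fl_fl.

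**Figure D4:**
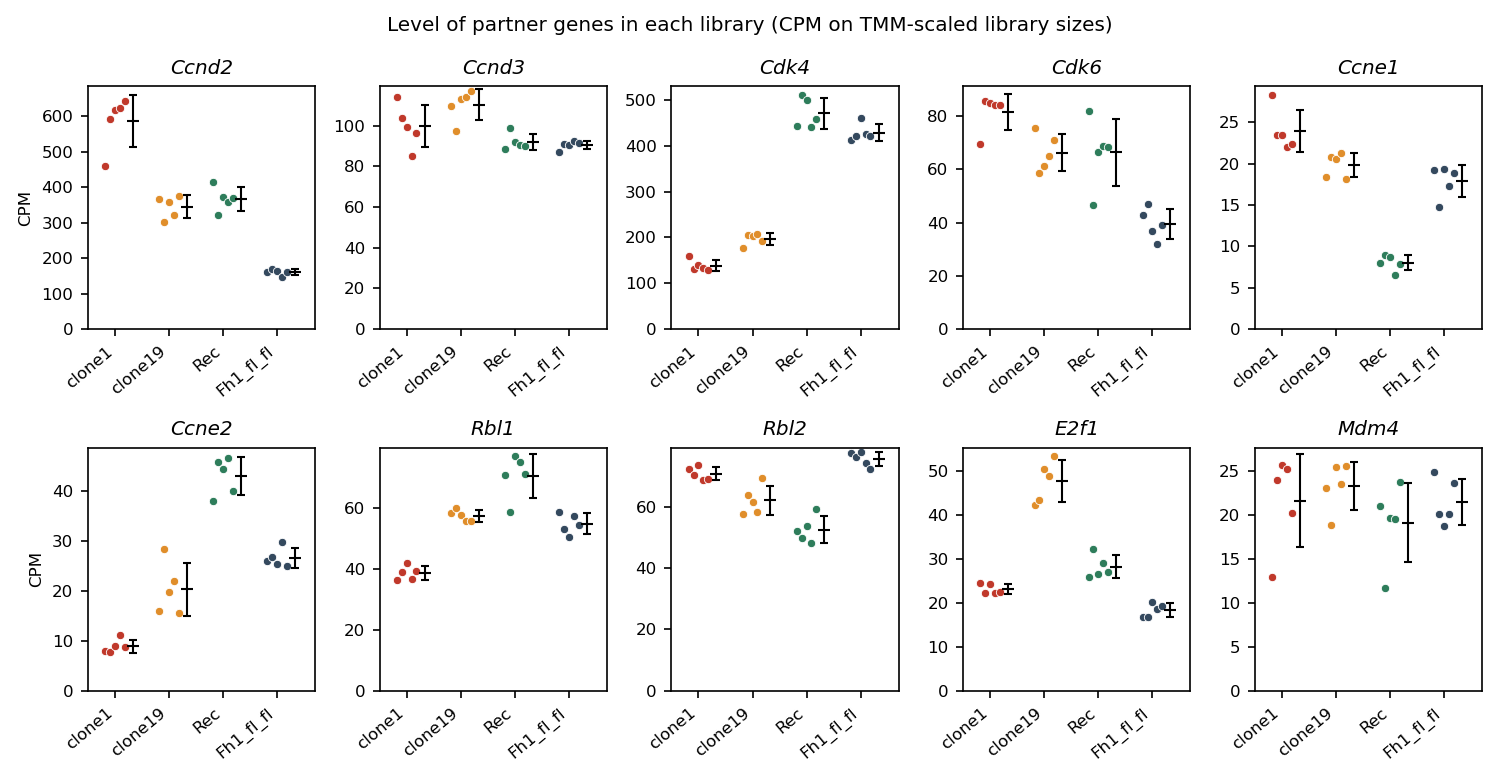
Level in CPM (y axis, from 0) of 10 cyclin, kinase, pocket protein, E2F and p53 partner genes in the 5 libraries of clone1, clone19, Rec and Fh1_fl_fl (x axis); points are libraries, bars the mean ± SD. Cdk4 stays at or under 208 CPM in both clones and at or above 412 CPM in Rec and Fh1_fl_fl, and Ccne1 is lowest in Rec.

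Downstream of RB, the E2F target genes were higher in Rec than in each of the other groups, while the clones had fewer of them higher than lower. Of 26 listed targets of E2F factors, mostly replication genes, 25 were higher and 1 lower in Rec than in clone1, than in clone19 and than in Fh1_fl_fl, where 39.7%, 35.8% and 33.4% of all tested genes were called higher. The lower one was Ccne1, for cyclin E1, in each case. The median log2 fold change of the list was 1.31 against clone1, 1.15 against clone19 and 1.03 against Fh1_fl_fl, beside 0.01, -0.02 and -0.03 over all genes. In clone1, 7 of the 26 were higher and 14 lower than in Fh1_fl_fl, and in clone19 8 were higher and 12 lower. Among all tested genes, 38% were higher and 40.5% lower in clone1, and 36.8% and 36.1% in clone19. On the log2 scale the list median lay at -0.21 for clone1, beside -0.03 for all genes. For clone19 it lay at -0.0, beside 0.0, so the targets there had no shift of their median. The 3 comparisons of Rec share its 5 libraries. Rrm2, a subunit of the enzyme that makes deoxyribonucleotides, averaged 47 ± 4.42 CPM in clone1, 73.4 ± 4.49 in clone19, 571 ± 17.1 in Rec and 147 ± 9.42 in Fh1_fl_fl. Tyms, which makes thymidylate, averaged 28.3 ± 1.37, 32.7 ± 3.41, 119 ± 8.47 and 82.3 ± 4.82 CPM in clone1, clone19, Rec and Fh1_fl_fl. Pola1, the catalytic subunit of the polymerase that starts DNA chains, averaged 26.7 ± 2.17, 43.3 ± 3.09, 111 ± 8.26 and 94.2 ± 7.66 CPM in the same order. All 3 fell in both clones and were higher in Rec than in Fh1_fl_fl, Pola1 by 0.23 on the log2 scale with adjusted p up to 0.24 over the alternatives. With library totals, 23 of the 26 targets were higher in Rec than in Fh1_fl_fl.

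The E cyclins differed between themselves. Ccne1 had 28.3, 23.5, 23.5, 22 and 22.4 CPM in clone1, 18.4, 20.8, 20.6, 21.3 and 18.2 in clone19, 8.03, 8.94, 8.66, 6.58 and 7.93 in Rec, and 19.2, 14.8, 19.4, 17.3 and 18.9 in Fh1_fl_fl. It rose in clone1 by 0.41 (adjusted p = 0.000184) and fell in Rec by 1.16 (adjusted p = 6.71e-11) on the log2 scale, and differed by 0.14 in clone19 (adjusted p = 0.169). Ccne2 averaged 8.92 ± 1.34 CPM in clone1, 20.3 ± 5.26 in clone19, 42.9 ± 3.77 in Rec and 26.5 ± 1.91 in Fh1_fl_fl, so it fell in clone1 by 1.59 and in clone19 by 0.38 and rose in Rec by 0.69. Its clone19 libraries overlapped those of Fh1_fl_fl. Cdkn3, a phosphatase acting on CDK2 whose RNA rises in dividing cells, averaged 5.19 ± 1.07, 7.29 ± 1.18, 14.9 ± 2.27 and 7.28 ± 0.983 CPM in clone1, clone19, Rec and Fh1_fl_fl, and fell in clone1 by 0.45 (adjusted p = 0.00806) and rose in Rec by 1.04 (adjusted p = 5.85e-08) on the log2 scale. The clone1 libraries overlapped those of Fh1_fl_fl. Ccne1, Ccne2, Mybl2, Ppm1d and Trp73 each stand in 2 of the lists used here, and Trp73 was not tested.

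Of 18 pocket protein, E2F and DREAM complex genes, 7 were higher and 8 lower in clone1, 8 higher and 5 lower in clone19, and 13 higher and 2 lower in Rec, each against Fh1_fl_fl. The counts in clone1 and clone19 lie near the shares of all tested genes called higher (38% and 36.8%) and lower (40.5% and 36.1%), while in Rec 33.4% of all tested genes were higher and 37.4% lower. E2f1, an activating E2F, averaged 23.2 ± 1.2 CPM in clone1, 47.8 ± 4.81 in clone19, 28.3 ± 2.61 in Rec and 18.4 ± 1.54 in Fh1_fl_fl, and rose in all 3, most in clone19 (log2 fold change 1.38, adjusted p = 2.19e-14). E2f5, an E2F that works with p130 as a repressor, rose by 1.17 in clone1, 1.46 in clone19 and 0.35 in Rec. E2f6, a repressor independent of RB, rose by 1.18 in clone1 and 0.78 in clone19. Tfdp1, the dimer partner of E2F proteins, averaged 67.3 ± 3.62 CPM in clone1, 91.8 ± 3.25 in clone19, 171 ± 5.79 in Rec and 157 ± 6.48 in Fh1_fl_fl, and fell in both clones.

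**Figure D5:**
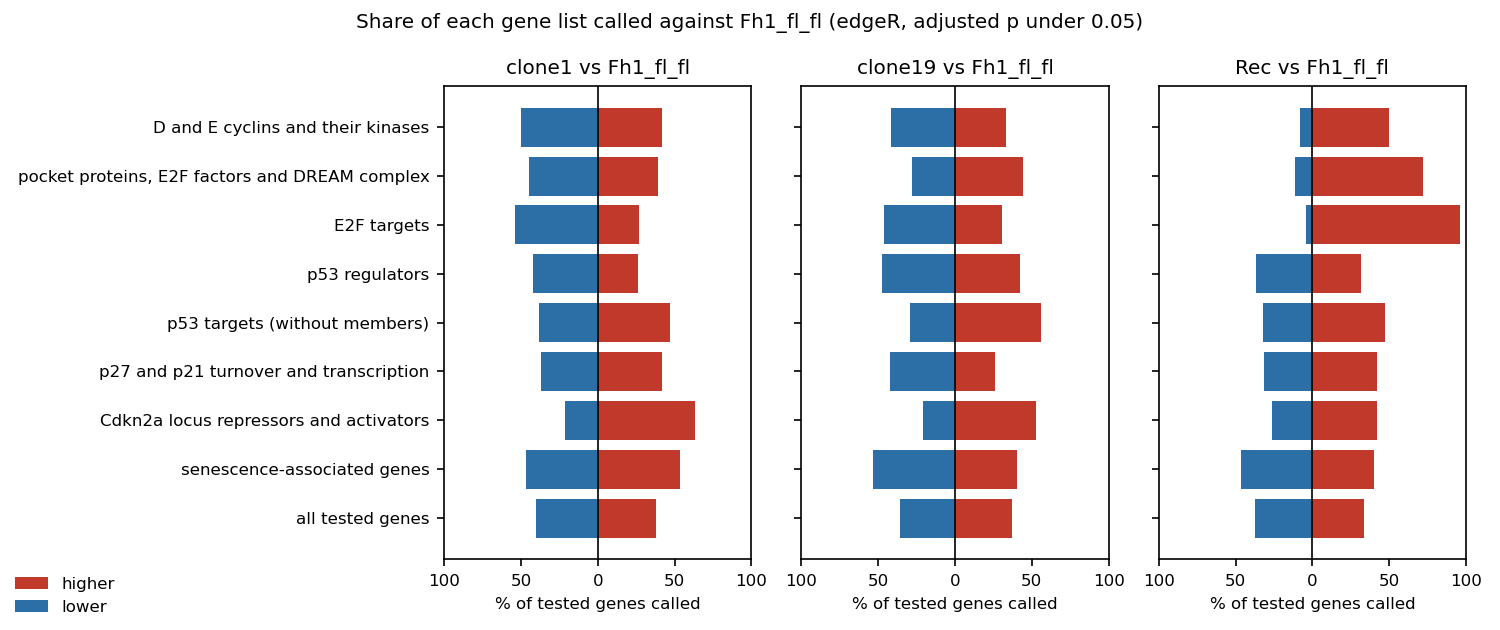
Percent of the tested genes of 8 gene lists, and of all tested genes, that were called higher (right, red) or lower (left, blue) in clone1, clone19 and Rec against Fh1_fl_fl; bars run from 0. The E2F targets in Rec, with 25 of 26 higher, stand farthest from the 33.4% of all tested genes.

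The known regulators of the 10 genes gave mixed counts. Among 19 genes that control the transcription or turnover of p27 and p21, 8 were higher and 7 lower in clone1, 5 higher and 8 lower in clone19, and 8 higher and 6 lower in Rec, against Fh1_fl_fl; with library totals, 5, 3 and 5 were higher. Skp1a, a subunit of the ligase that degrades p27, fell in clone1 by 0.47 and in clone19 by 0.75. The p21-inducing factor Klf6 fell by 0.98 in clone1 and 0.62 in clone19. Smad3, which carries TGF-beta signals to Cdkn2b and Cdkn1a, fell in clone1 by 0.63 and in Rec by 0.51 but rose in clone19 by 0.69. Of 19 tested repressors and activators of the Cdkn2a locus, 12 were higher and 4 lower in clone1, 10 higher and 4 lower in clone19, and 8 higher and 5 lower in Rec. Of all tested genes, 38% were higher and 40.5% lower in clone1, 36.8% and 36.1% in clone19, and 33.4% and 37.4% in Rec, so the list held more higher genes than that share in clone1 and clone19. The list's medians on the log2 scale in clone1, clone19 and Rec were 0.34, 0.2 and 0.07, beside -0.03, 0.0 and -0.03 over all tested genes. Bmi1, the Polycomb protein that represses the locus, averaged 64.5 ± 3.94 CPM in clone1, 60.8 ± 3.87 in clone19, 125 ± 8.92 in Rec and 148 ± 10.3 in Fh1_fl_fl. It fell by 1.2, 1.28 and 0.24, and Ets1, an activator of p16Ink4a, fell by 1.53, 1.31 and 1.28 in clone1, clone19 and Rec. Twist1, which opposes expression of the locus, rose in all 3, by 0.94, 1.31 and 1.15.

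Of 20 genes associated with senescence, 15 were tested and Il6, Il1a, Il1b, Mmp3 and Igfbp5 had too few counts. In clone1 8 of the 15 were higher and 7 lower than in Fh1_fl_fl, in clone19 6 and 8, and in Rec 6 and 7. Over all tested genes, 78.6% were called in clone1, 72.9% in clone19 and 70.8% in Rec. Areg, the growth factor amphiregulin, averaged 18.9 ± 3.7 CPM in clone1, 4.73 ± 0.326 in clone19, 4.09 ± 0.25 in Rec and 0.601 ± 0.372 in Fh1_fl_fl, and rose in all 3. The chemokine gene Cxcl5 averaged 23.1 ± 5.09, 4.29 ± 0.775, 78.9 ± 7.18 and 138 ± 17.3 CPM in clone1, clone19, Rec and Fh1_fl_fl, and fell in all 3. Cxcl1, another chemokine gene, had 1.53 ± 0.736, 0.081 ± 0.113, 12.7 ± 1.66 and 11.9 ± 1.28 CPM in that order, and fell in both clones.

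The 10 genes also differed in level. Per length, Ccnd1 was highest in clone1 (280.3 ± 11.9 RPKM), clone19 (215 ± 9.32 RPKM) and Rec (272 ± 12 RPKM), with Trp53 second at 121 ± 8.31, 83.9 ± 3.1 and 163 ± 10.8 RPKM. In Fh1_fl_fl the order was reversed, with Trp53 at 166 ± 6.66 RPKM and Ccnd1 at 97.1 ± 7.42 RPKM. Cdkn2a followed these genes in every group, between 46 ± 4.85 RPKM in clone19 and 63.2 ± 5.17 RPKM in clone1. By this measure Cdkn1a was number 9 of the 10 in clone1, 6 in clone19, 5 in Rec and 4 in Fh1_fl_fl. The gene just above it, Mdm2, lay within the spread of the libraries in clone1 (13.2 ± 1.16 RPKM for Mdm2, 12.2 ± 1.75 for Cdkn1a) and in clone19 (17.1 ± 1.22 and 16.5 ± 1.92 RPKM). Rb1 was number 6 in clone1, 9 in clone19 and 10 in Rec and Fh1_fl_fl.

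For each of the 10, the tested genes whose mean-centred log2 CPM lay closest over the 20 libraries were found. For Rb1 these were Stard5 and Vegfa, at root-mean-square differences of 0.19 and 0.21 where the median over all tested genes was 1.18. Vegfa averaged 483 CPM in clone1, 337 in clone19, 113 in Rec and 107 in Fh1_fl_fl. For Cdkn2d they were Pgk1 and Fbxl12, both at 0.17 (median 0.78), with Pgk1 at 1167, 1364, 506 and 519 CPM in clone1, clone19, Rec and Fh1_fl_fl. The closest to Cdkn1a were Abhd11 (0.11) and Nfkb1 (0.15), and to Cdkn1b Xbp1 (0.13) and Slc30a4 (0.14). Trp53 lay closest to Fdps and Patz1 (both 0.09), Mdm2 to Gm45902 and Hnrnpr (both 0.10), and Ccnd1 to Rasa3 (0.13) and Nars (0.15). For Cdkn2a they were Nudt16l1 and Ciao1 (both 0.14), for Cdkn2b Akr1b8 and Cox7a2l (both 0.15), and for Cdkn2c Rer1 and Eif3b (both 0.15). These are the smallest of 12671 such differences for each gene and describe the 20 libraries only.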

How the data were processed

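The authors deposited whole-number read counts per Ensembl gene, 1 table per library, not normalized. DESeq 1.10.1, HTSeq 0.5.3p9 and TopHat2 2.0.4, with GRCm38 as genome build, are listed per the submitters' processing notes; annotation and strand setting: not given in the sources used here. HTSeq's closing entries for reads without a unique gene, 33.89 to 47.48% of each library's sum, were left out. Symbols, coordinates and merged exon lengths came from GENCODE M21 on GRCm38.

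Groups came from sample titles and genotype labels. The counts of all 20 libraries were fitted in R 4.3.3 with edgeR 4.0.16: filterByExpr (12671 genes tested, 26508 not), TMM, 1 quasi-likelihood fit with 4 group means, 6 comparisons, Benjamini-Hochberg adjustment over all tested genes, threshold 0.05. The procedure was tested on simulated data in which a small part of the genes was changed, in clone1 only. In the real comparisons most tested genes were called, a setting the simulation did not cover. Alternatives were RLE size factors, library totals, no count filter, DESeq2 1.42.0, fits to 2 groups, a replicate block, and 20 fits leaving out 1 library each. The median gene total was 10485784 counts; 3 counts, the limit a count of 0 allows, equal 0.1581 to 0.501 CPM per library, which covers counting error only.

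The 10 genes and all lists were chosen with earlier results of these data known. Named are the 10, fixed partners, and from each list up to 3 genes called in both clones with every clone library outside the Fh1_fl_fl range, ranked by the smaller change, plus the 2 genes most alike each of the 10.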

Additional observations from a re-analysis of the deposited data

Results flagged for a closer look

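Trp53 in clone1 replicate 1, at 551 CPM, lay far from the other 4 clone1 libraries, which ran from 472 to 480.0 CPM. It was the only far library among the 40 groups of 5 values examined (10 genes in 4 groups), and chance marks about 1 in 20 such groups. Trp53 stayed below every Fh1_fl_fl library in that library too.

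For 9 of the 10 genes the change against Fh1_fl_fl differed between clone1 and clone19 by the edgeR test of the difference, which equals the direct comparison of the clones. Clone1 minus clone19 was 1.09 for Cdkn1b, 0.80 for Rb1, 0.53 for Trp53, 0.50 for Cdkn2b, 0.46 for Cdkn2a and 0.38 for Ccnd1 on the log2 scale. It was -0.71 for Cdkn2c, -0.42 for Cdkn1a and -0.38 for Mdm2. Over all tested genes, 65.1% were called between the clones.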

How the results depend on the processing

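Of 1560 recomputed log2 fold changes of the 10 genes, 1517 kept their direction and their side of the threshold, 9 lost a call, 5 gained one and 29 changed sign; none of the called values changed sign. With library totals, the sign turned for Cdkn2b in clone1 (-0.08), and for Cdkn1b (-0.02) and Mdm2 (-0.03) in clone19, against Fh1_fl_fl. Over the fits that left out 1 library, values near 0 ran from -0.04 to 0.02 for Trp53 and from -0.11 to 0.04 for Rb1 in Rec against Fh1_fl_fl, from -0.03 to 0.09 for Cdkn2a in Rec against clone19, and from -0.07 to 0.05 for Cdkn2d in clone1 against clone19. Cdkn2d in that comparison was 0.00 in the fit to those groups alone and 0.01 with RLE, DESeq2 or no count filter. The cause was not tested.

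Library totals moved the median log2 fold change of all genes to -0.17 in clone1, -0.12 in clone19 and -0.17 in Rec against Fh1_fl_fl, where TMM gave -0.03, 0.0 and -0.03; of the genes called in Rec, 36.57% were then higher, against 47.16% with TMM. DESeq2 called Cdkn1b in clone19 (0.11, adjusted p = 0.0495). Leaving out 1 library gave 4 to 5 of the 10 genes higher in clone19 and 2 to 3 in Rec against Fh1_fl_fl; the other member counts kept their values. Same-numbered libraries of different groups correlated at -0.197 to 0.163 in their deviations, so no pairing by number was seen. That does not exclude that such libraries were handled together, on which the labels are silent. With the replicate block, 9926, 9186 and 8918 genes were called in clone1, clone19 and Rec against Fh1_fl_fl, and 4, 4 and 3 of the 10 were higher. Genes under about 10 CPM, such as Cdkn2d in Rec (67 to 152 counts a library), rest on few counts.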
